A study of Mus musculus with 12 samples.

Results

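The sirtuins and the enzymes that make their co-substrate NAD were followed in the RNA of mouse embryonic fibroblasts. The genes are the 7 sirtuins Sirt1 to Sirt7 and the 3 NAD synthesis enzymes Nampt, Nmnat1 and Nmnat3. They are 10 of the 34866 genes in the deposited expression table, each with 1 Ensembl identifier there, and 10 of 10 had a mean of at least 1 TPM. Values are TPM, the estimated share of a gene's transcripts among all transcripts in a library, corrected for length and scaled to the same total in every library, so levels of different genes can be compared. TPM keep no record of sequencing depth. The methods of the study name a planned depth, but the depth reached in each library is unknown, and no counting interval is given.

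The study asked how loss of Sirt3 affects male and female cells. Fibroblasts were isolated from 13-day embryos of wild-type (Sirt3+/+) mice of strain 129S1/SvImJ and of Sirt3 knock-out (Sirt3-/-) mice. The methods of the study list wild-type and knock-out mice as separate stocks, so stock and genotype cannot be told apart. The sex of the cells was typed by PCR, and stable lines were made with an SV40 plasmid. The 12 libraries of polyA RNA fall into 4 groups of 3: male wild-type (male WT), male knock-out (male KO), female wild-type (female WT) and female knock-out (female KO). All cells were at passage 6 and were collected 48 h after seeding. Replicates were parallel wells, and the number of cell lines per group was not given in the sources used here. If each group was 1 line, the line cannot be told apart from genotype and sex, and p-values measure only the spread between wells.

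Sirtuins remove acetyl and other acyl groups from lysines and split a molecule of NAD each time, which releases nicotinamide. Nampt, the rate-limiting enzyme of the salvage pathway, turns nicotinamide into nicotinamide mononucleotide, and the Nmnat enzymes turn that into NAD. Sirt1, Sirt6 and Sirt7 act in the nucleus, Sirt2 mainly in the cytosol, and Sirt3, Sirt4 and Sirt5 in mitochondria.

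Fibroblast markers were high in every library. Of 10 markers, 9 had a mean of at least 1 TPM, and Lum was under 1 TPM in all 12 libraries. Their summed level was 10873 ± 571 TPM in male WT, 12718 ± 353 in male KO, 8282 ± 82.4 in female WT and 10570 ± 146 in female KO (SD, n = 3), and Col1a1, a chain of type I collagen, had the highest mean over the 12 libraries. In all 3 female WT libraries Vim, an intermediate filament protein of fibroblasts, was above it (2995 ± 13.8 against 2127 ± 50.1 TPM). Single markers did not all follow the sum: S100a4, a calcium-binding protein, fell from 1129 ± 61.5 to 960.2 ± 6.85 TPM in male KO (log2 difference −0.23, adjusted p = 0.00936) and rose from 240.6 ± 26.1 to 664.1 ± 42.96 TPM in female KO (1.47, adjusted p = 2.17e-04).

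Summed markers of other cell types, in shorter lists of 4 or 5 genes, were far lower, and some moved with genotype. The 5 epithelial markers summed to 77.1 ± 0.969 TPM in male WT, 8.25 ± 0.469 in male KO, 21.6 ± 1.65 in female WT and 8.43 ± 1.497 in female KO, with 3 of the 5 at a mean of at least 1 TPM and Krt19 on top. In male WT that sum was above the single fibroblast markers Pdgfra (24.4 ± 1.43 TPM) and Pdgfrb (59.1 ± 3.33 TPM). The other fibroblast markers except Lum were above it there. The defining epithelial cadherin, Cdh1, was under 1 TPM in all libraries. The 4 neural markers summed to 91.0 ± 2.12, 60.0 ± 5.22, 102.8 ± 4.48 and 72.0 ± 5.90 TPM in the same order of groups. Map2 was the most abundant of them, and 3 of the 4 had a mean of at least 1 TPM. Single neural markers did not follow the sum: Sox2 was at 14.1 ± 2.07, 1.14 ± 0.770, 2.20 ± 0.220 and 6.31 ± 0.161 TPM, lower in male KO and higher in female KO than in WT. Tubb3 was at 10.2 ± 0.324, 13.2 ± 0.942, 16.9 ± 1.12 and 14.7 ± 1.46 TPM. Only 1 of 4 endothelial markers had such a mean (Kdr), and their sum was 1.92 ± 0.162, 1.48 ± 0.130, 5.25 ± 0.522 and 2.02 ± 0.203 TPM. Macrophage markers also held 1 of 4 (Cd68), with sums of 5.92 ± 1.62, 8.51 ± 2.66, 7.92 ± 1.34 and 6.36 ± 1.90 TPM, and Adgre1 was listed at 0 in every library. Csf1r, the receptor of a macrophage growth factor, was at 0.208 ± 0.0682 TPM in male WT against 1.41 ± 0.199 in male KO, which did not overlap (adjusted p = 0.00399 with no filter on low values), and at 0.164 ± 0.0812 in female WT and 0.287 ± 0.0743 in female KO. Skeletal muscle markers held 1 of 4 (Des), with sums of 0.246 ± 0.119, 0.185 ± 0.0519, 6.28 ± 0.493 and 0.128 ± 0.188 TPM, and Myf5 was listed at 0 throughout. In bulk RNA, fewer cells of a type and less RNA per cell cannot be told apart. The part of these markers in the results on sirtuins and NAD enzymes was not tested.

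**Figure D1:**
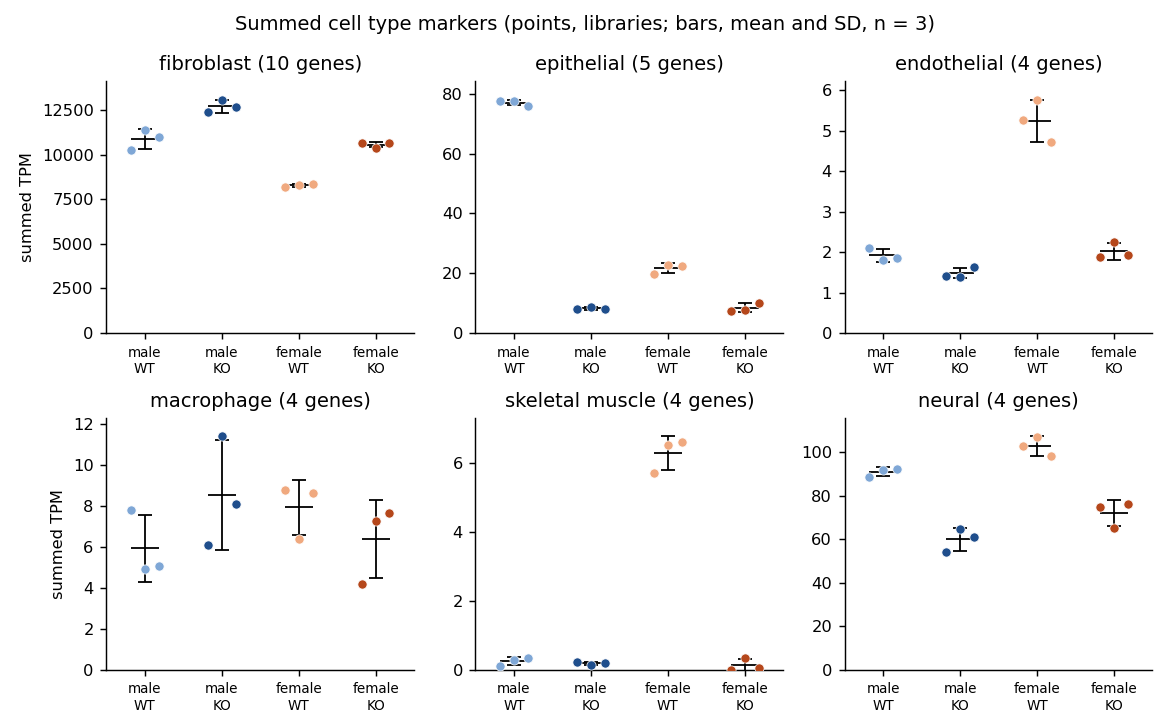
Summed TPM (y axis) of 6 marker lists in each library, by group; points are libraries and bars the mean and SD (n = 3). The fibroblast sum was at least 8187 TPM in every library, and the epithelial sum was 77.1 TPM in male WT against 8.25 in male KO.

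Sirt3, the gene named in the genotype and the main mitochondrial deacetylase, came first. In male WT it was at 6.59, 7.17 and 9.07 TPM, and in male KO at 8.88, 10.9 and 11 TPM. In female WT it was at 7.40, 7.60 and 8.69 TPM, and in female KO at 7.57, 9.06 and 8.19 TPM. No library labelled KO was below the lowest WT library of its sex, and in each sex the KO and WT values overlapped. The mean was 7.61 ± 1.30 TPM in male WT against 10.3 ± 1.19 in male KO, and 7.90 ± 0.695 in female WT and 8.27 ± 0.749 in female KO (SD, n = 3). The labelled KO level was thus 135% of WT in male cells and 105% in female cells.

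The level of Sirt3 mRNA therefore does not separate the labelled genotypes, and KO here means a library labelled KO. The deposited table holds no measure of Sirt3 protein. A gene-level value sums all transcripts of a gene, so an intact transcript and one that lacks a part cannot be told apart. Tests were made on log2(TPM + 1) with limma across all 12504 genes whose mean was 1 TPM or more, and a gene was called at a Benjamini-Hochberg adjusted p under 0.05. On this scale the change of genes with low TPM is understated. The difference of Sirt3 between KO and WT was 0.39 in male cells (95% interval 0.056 to 0.73, adjusted p = 0.0981) and 0.059 in female cells (−0.20 to 0.31, adjusted p = 0.772), and neither was called. With all 12 libraries in one fit the male difference passed (adjusted p = 0.0403), and over the 13 alternative settings its adjusted p ran from 0.0403 to 0.239. The difference between these effects was 0.33 (−0.060 to 0.73, adjusted p = 0.284).

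Sirt3 (ENSMUSG00000025486.17) lies on the minus strand at chr7:140863666-140882309 in GRCm38, with 10 annotated transcripts. Of its 5973 exonic bases, 760 (12.7%) are shared with genes on the opposite strand, 418 with Ric8a and 342 with Psmd13. Whether the deposited values used strand was not given in the sources used here, and without it reads from these stretches cannot be told apart. Ric8a was at 42.3 ± 5.50 TPM in male WT against 45.8 ± 1.87 in male KO, and at 44.8 ± 2.32 in female WT and 40.2 ± 2.81 in female KO. Psmd13, a subunit of the proteasome, was at 120.2 ± 6.29, 119.1 ± 5.52, 112.0 ± 4.71 and 115.5 ± 2.14 TPM in the same order. Neither neighbour was called between KO and WT in male cells (adjusted p = 0.409 and 0.902) or in female cells (adjusted p = 0.205 and 0.531).

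Among the nuclear sirtuins, Sirt1 separated the labelled genotypes in both sexes. KO and WT did not overlap for 40% of all genes in male cells and 33.6% in female cells. By the limma test Sirt1 was called lower in male cells (adjusted p = 0.0113) and was not called in female cells (adjusted p = 0.0721). Sirt1, a deacetylase of histones and of transcription regulators such as p53, was at 21.1, 21.2 and 22.9 TPM in male WT and at 16.8, 15.9 and 13.8 TPM in male KO. In female WT it was at 21.7, 22.8 and 18.8 TPM, and in female KO at 17.8, 16.3 and 16.1 TPM. Every KO library was below every WT library of its sex. The KO mean was 71.2% of the WT mean in male cells (15.5 ± 1.49 against 21.7 ± 1.03 TPM) and 79.2% in female cells (16.7 ± 0.955 against 21.1 ± 2.06 TPM).

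Sirt1 (ENSMUSG00000020063.16) spans chr10:63319005-63381704 on the minus strand in GRCm38. Its promoter is shown because Sirt1 was called lower in male KO, as was Nampt, whose promoter stands further on. The run below is the part outside annotated exons of the 250 bases before the RefSeq start, 235 bases at chr10:63339051-63339285 in GRCm38.p6, minus strand, and it lies inside the span of the annotated gene. Capitals mark matches on either strand to the E-box CACGTG (2 matches) and the GC box GGGCGG (6 matches, of which 2 overlap each other), and the window held 0 matches to CCAAT.
Sirt1: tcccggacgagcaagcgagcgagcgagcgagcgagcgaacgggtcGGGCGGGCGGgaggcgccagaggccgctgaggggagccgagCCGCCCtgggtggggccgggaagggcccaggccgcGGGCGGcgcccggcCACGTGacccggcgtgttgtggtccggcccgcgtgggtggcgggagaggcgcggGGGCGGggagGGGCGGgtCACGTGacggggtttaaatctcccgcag
Among 32851 RefSeq promoter windows of 250 bases, 6.02% held CACGTG, 32.7% held GGGCGG and 33.8% held CCAAT on either strand. All 10 genes were found by symbol in the RefSeq promoter table. For Sirt5 the bases after the RefSeq start matched no annotated transcript of the gene, and its window is not shown. A match is a description of the letters and shows no binding.

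Sirt6, which deacetylates histone H3 and acts in DNA repair, was at 21.4, 21.8 and 20.8 TPM in male WT and at 17.8, 20.1 and 17.5 TPM in male KO. In female WT it was at 22.1, 17.2 and 19.6 TPM, and in female KO at 22.6, 18.8 and 22.4 TPM. The male groups did not overlap, with KO at 86.5% of WT, while the female groups overlapped, with KO at 108.2% of WT. It (ENSMUSG00000034748.16) lies at chr10:81621785-81627797 on the minus strand. Sirt7, a nucleolar sirtuin tied to ribosomal RNA transcription, ranged from 22.1 to 29.9 TPM over the 12 libraries. Its group means were 26.8 ± 3.14 TPM in male WT, 25.0 ± 2.31 in male KO, 25.0 ± 2.86 in female WT and 25.2 ± 1.54 in female KO, and all groups overlapped. Sirt7 (ENSMUSG00000025138.14, chr11:120618372-120625240, minus strand) shares 178 of its 5148 exonic bases with Mafg and Mir6936 on the same strand, so its value is uncertain where the authors' estimate had to divide such reads. Mafg, a small Maf transcription factor, rose from 76.3 ± 4.07 TPM in male WT to 95.1 ± 8.20 in male KO (log2 difference 0.31, adjusted p = 0.0228). In female cells it was at 103.4 ± 7.23 TPM in WT and 100.1 ± 5.05 in KO and was not called (−0.045, adjusted p = 0.699).

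Sirt2, a deacetylase of tubulin, was the most abundant of the 10 genes in every library. It was at 56.1, 60.8 and 61.7 TPM in male WT, at 62.7, 63.5 and 65.1 in male KO, at 63.2, 59.0 and 66.4 in female WT, and at 58.5, 62.0 and 58.6 in female KO. It (ENSMUSG00000015149.14) lies at chr7:28766735-28788661 on the plus strand. The male KO libraries were all above the male WT libraries, by a margin small beside the level (107.1% of WT), and also all above the female KO libraries. The female groups overlapped, with KO at 94.99% of WT. Sirt2 was also the steadiest of the 10: its residual SD on the log2 scale was 0.061, against a median of 0.085 for the 3766 genes within 2-fold of its mean.

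Of the mitochondrial sirtuins, Sirt4 varied most. Sirt4, known as an ADP-ribosyltransferase and lipoamidase, was at 16.3, 16.5 and 11.8 TPM in male WT and at 10.7, 20.7 and 20.9 TPM in male KO. In female WT it was at 20.2, 26.6 and 22.3 TPM, and in female KO at 15.6, 17.0 and 14.4 TPM. The female KO libraries were all below the female WT libraries (68.1% of WT), and the male WT libraries were all below the female WT libraries (64.5%). Male KO held 1 low library, replicate 1, beside 2 libraries above all male WT values, so the male groups overlapped. Sirt4 (ENSMUSG00000029524.16) lies at chr5:115478010-115484725 on the minus strand. Its residual SD was 0.31 on the log2 scale, larger than that of 95.2% of the 4214 genes within 2-fold of its mean.

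Sirt5, which removes succinyl, malonyl and glutaryl groups, was at 9.11, 9.27 and 9.87 TPM in male WT and at 7.39, 9.21 and 8.01 TPM in male KO. Female WT stood at 7.01, 8.12 and 9.83 TPM, and in female KO at 4.90, 5.71 and 5.99 TPM. The female KO libraries held the 3 lowest values of all 12, below every female WT library (66.5% of WT) and below every male KO library. The male groups overlapped, with KO at 87.1% of WT. Sirt5 (ENSMUSG00000054021.6) lies at chr13:43365496-43395203 on the plus strand.

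Nampt values were lower in the labelled KO cultures of both sexes, and by the limma test this was called in male cells and not in female cells (adjusted p = 0.0381 and 0.0764). It was at 35.2, 28.2 and 26.6 TPM in male WT and at 19.95, 20.1 and 24.2 TPM in male KO. Female WT stood at 29.9, 25.4 and 26.9 TPM, and in female KO at 22.8, 21.4 and 23.6 TPM. Every KO library was below every WT library of its sex, and male WT replicate 1 was the highest of the 12. The KO mean was 71.3% of WT in male cells (21.4 ± 2.40 against 30.0 ± 4.58 TPM) and 82.3% in female cells (22.6 ± 1.13 against 27.4 ± 2.28 TPM).

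Nampt (ENSMUSG00000020572.8) spans chr12:32819545-32853349 on the plus strand in GRCm38. The 250 bases before its RefSeq start, at chr12:32820085-32820334 in GRCm38.p6, plus strand, are outside annotated exons and inside the span of the annotated gene. They are shown, as for Sirt1, because Nampt was called lower in male KO. Capitals mark 5 matches to GGGCGG on either strand, and the window held 0 matches to CACGTG and 0 to CCAAT.
Nampt: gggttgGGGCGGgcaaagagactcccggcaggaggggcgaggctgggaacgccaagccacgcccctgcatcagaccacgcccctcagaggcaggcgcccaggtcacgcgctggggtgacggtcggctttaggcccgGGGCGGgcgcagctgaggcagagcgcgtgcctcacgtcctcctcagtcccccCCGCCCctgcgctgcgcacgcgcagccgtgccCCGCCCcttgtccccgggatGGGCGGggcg

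The Nmnat enzymes, which make NAD from nicotinamide mononucleotide in the nucleus (Nmnat1) and in mitochondria (Nmnat3), did not separate any pair of groups. Nmnat1 ranged from 7.02 to 10.7 TPM, with means of 9.21 ± 1.62 in male WT, 8.75 ± 0.735 in male KO, 8.57 ± 1.44 in female WT and 9.49 ± 1.58 in female KO. Nmnat3 was the lowest of the 10 genes in every group, from 0.720 to 2.19 TPM, with means of 1.71 ± 0.1796, 1.43 ± 0.622, 1.59 ± 0.553 and 1.46 ± 0.260 in the same order. The lowest value of Nmnat3 was in male KO replicate 1. Nmnat1 (ENSMUSG00000028992.13) lies at chr4:149467572-149485202 on the minus strand, and Nmnat3 (ENSMUSG00000032456.13) at chr9:98287435-98420438 on the plus strand.

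**Figure D2:**
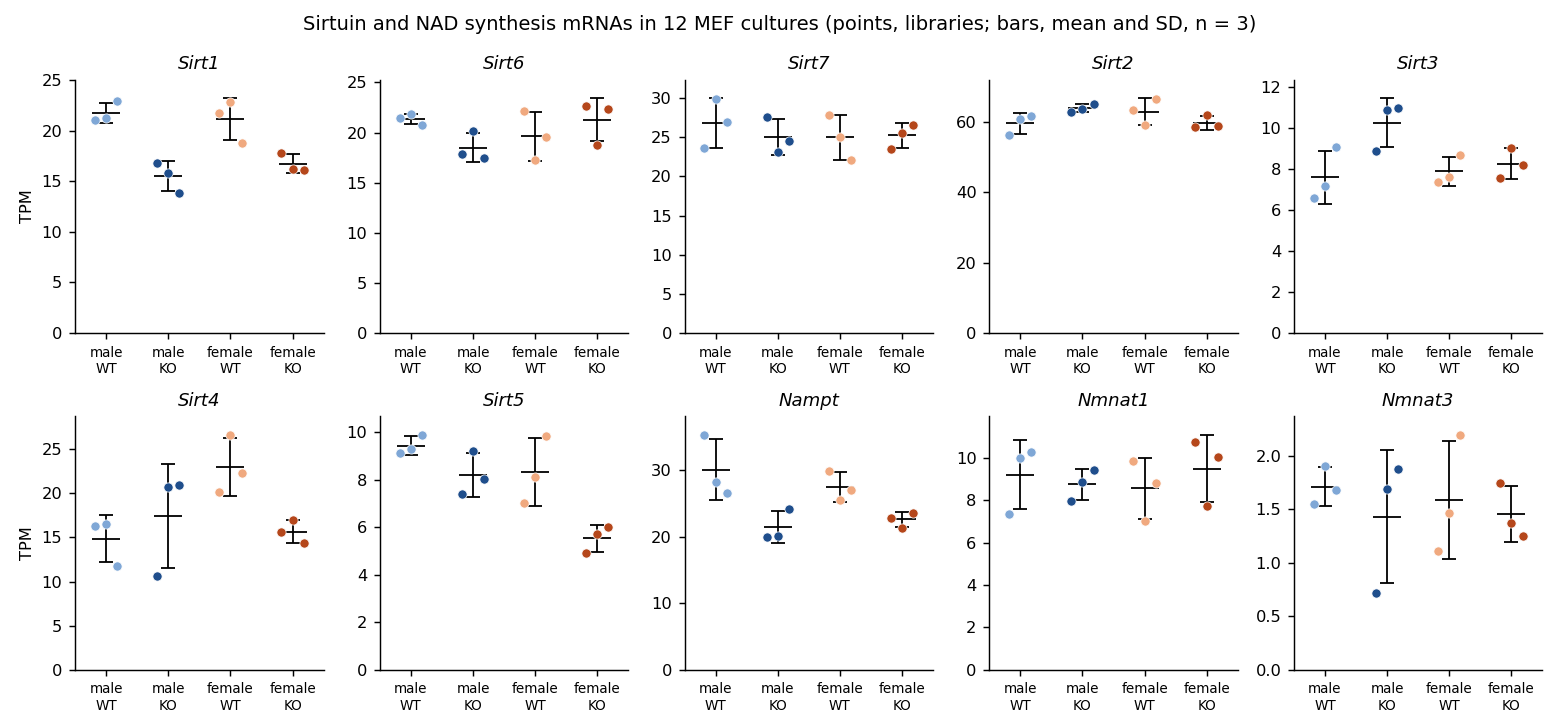
TPM (y axis, from 0) of each of the 10 genes by group; points are the 12 libraries and bars the mean and SD (n = 3). Sirt1 and Nampt were lower in every KO library than in every WT library of its sex, whereas Sirt3 overlapped between the labelled genotypes.

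Between male KO and male WT, Sirt1 and Nampt fell. Sirt1 fell by 0.47 on the log2 scale (95% interval −0.68 to −0.25, adjusted p = 0.0113, lower in 3 of 3 KO libraries). Nampt fell by 0.47 as well (−0.76 to −0.17, adjusted p = 0.0381, lower in 3 of 3). So 2 of 10 genes were called, both lower and 0 higher, beside 21.6% of all genes tested, 10.9% lower and 10.7% higher. At an unadjusted p under 0.05 in limma there were 4 of 10, beside 4383 of 12504 genes. Both shares are near the background. The groups did not overlap for 4 of 10 genes (Sirt1, Sirt6 and Nampt lower, Sirt2 higher), beside 40% of all genes. The median difference over the 10 genes was −0.14, beside −0.015 over all genes tested.

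The remaining 8 genes were not called in male cells. Sirt6 differed by −0.20 (−0.38 to −0.018, adjusted p = 0.115), Sirt5 by −0.18 (−0.44 to 0.070, adjusted p = 0.276) and Sirt2 by 0.099 (−0.026 to 0.22, adjusted p = 0.235). The interval of Sirt4 ran from −0.45 to 0.80 and that of Nmnat3 from −0.74 to 0.36, so changes of these sizes in either direction are not excluded. Sirt7 (−0.34 to 0.16) and Nmnat1 (−0.39 to 0.28) had intervals around 0.

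The call of Sirt1 in male cells held when any 1 of the 6 libraries was left out (adjusted p 0.0188 to 0.0485) and under 7 of 7 other settings (0.00242 to 0.0378). The call of Nampt was lost without male KO replicate 1 (adjusted p = 0.112), male KO replicate 2 (0.104), male WT replicate 1 (0.0844) or male WT replicate 2 (0.0750). It was also lost with no filter on low values (0.120), median-of-ratios scaling (0.0546), no mean-variance trend (0.0624) or the replicate number as a block (0.0785), although replicates of different groups share only a number, and over 7 such settings its adjusted p ran from 0.00819 to 0.120. The epithelial marker sum was 77.1 TPM in male WT against 8.25 in male KO, and its part in these differences was not tested.

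Between female KO and female WT, Sirt4 fell and Sirt1, Sirt5 and Nampt did not pass. Sirt4 fell by 0.52 (95% interval −0.79 to −0.25, adjusted p = 0.0323, lower in 3 of 3 KO libraries). So 1 of 10 genes was called, lower, with 0 higher, beside 11.5% of all genes tested, 5.84% lower and 5.63% higher. At an unadjusted p under 0.05 there were 4 of 10, beside 3399 of 12504 genes. The groups did not overlap for 4 of 10 genes (Sirt1, Sirt4, Sirt5 and Nampt, all lower in KO), beside 33.6% of all genes. The median difference was −0.066 over the 10 genes and −0.023 over all genes tested. Leaving out any 1 of the 6 female libraries lowered the number of all genes called from 1434 to between 774 and 835.

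Sirt5 differed by −0.51 in female cells (−0.84 to −0.17, adjusted p = 0.0684), Sirt1 by −0.32 (−0.53 to −0.10, adjusted p = 0.0721) and Nampt by −0.27 (−0.45 to −0.082, adjusted p = 0.0764). Of these, Sirt5 and Sirt1 passed with all 12 libraries in one fit (adjusted p = 0.0196 and 0.0381), and over 13 settings their adjusted p ran from 0.0196 to 0.173 and from 0.0381 to 0.181. Sirt6 (−0.16 to 0.38), Sirt7 (−0.21 to 0.24) and Sirt2 (−0.20 to 0.060) had intervals around 0. The intervals of Nmnat1 (−0.25 to 0.52) and Nmnat3 (−0.55 to 0.43) were wider. The call of Sirt4 was lost without female KO replicate 1 (adjusted p = 0.0916), female KO replicate 2 (0.0613), female KO replicate 3 (0.0958), female WT replicate 2 (0.0712) or female WT replicate 3 (0.0873). It was also lost with no filter (0.0975), no mean-variance trend (0.0524) or all 12 libraries in one fit (0.154), over 7 settings that ran from 0.0257 to 0.154.

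Whether the KO effect differed between the sexes was tested as an interaction over all 12 libraries, the male difference minus the female difference. Of the 10 genes, 0 were called higher or lower by limma, beside 13% of all genes tested, 6.7% higher and 6.33% lower. At an unadjusted p under 0.05 there were 3 of 10 (Sirt2, Sirt4 and Sirt6), beside 3147 of 12504 genes. For Sirt1 the interaction was −0.15 (−0.43 to 0.13, adjusted p = 0.517), and for Nampt −0.20 (−0.54 to 0.14, adjusted p = 0.480). So the pass in male cells and the miss in female cells of both genes are not shown to differ. For Sirt4 it was 0.70 (0.0077 to 1.38, adjusted p = 0.193), and without male KO replicate 1, its low library, it was 0.996 (adjusted p = 0.00929). That was the only pass of Sirt4, called in 1 of 12 leave-outs and 0 of 6 other settings. Over these 18 alternative settings its adjusted p ran from 0.00929 to 0.349. Sirt6 gave −0.31 (−0.62 to −0.0072, adjusted p = 0.187), Sirt5 0.32 (−0.061 to 0.71, adjusted p = 0.287) and Sirt2 0.17 (0.0055 to 0.34, adjusted p = 0.182). Sirt7, Nmnat1 and Nmnat3 had adjusted p of 0.718, 0.673 and 0.855. The median over the 10 genes was −0.12, beside 0.0047 over all genes.

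**Figure D3:**
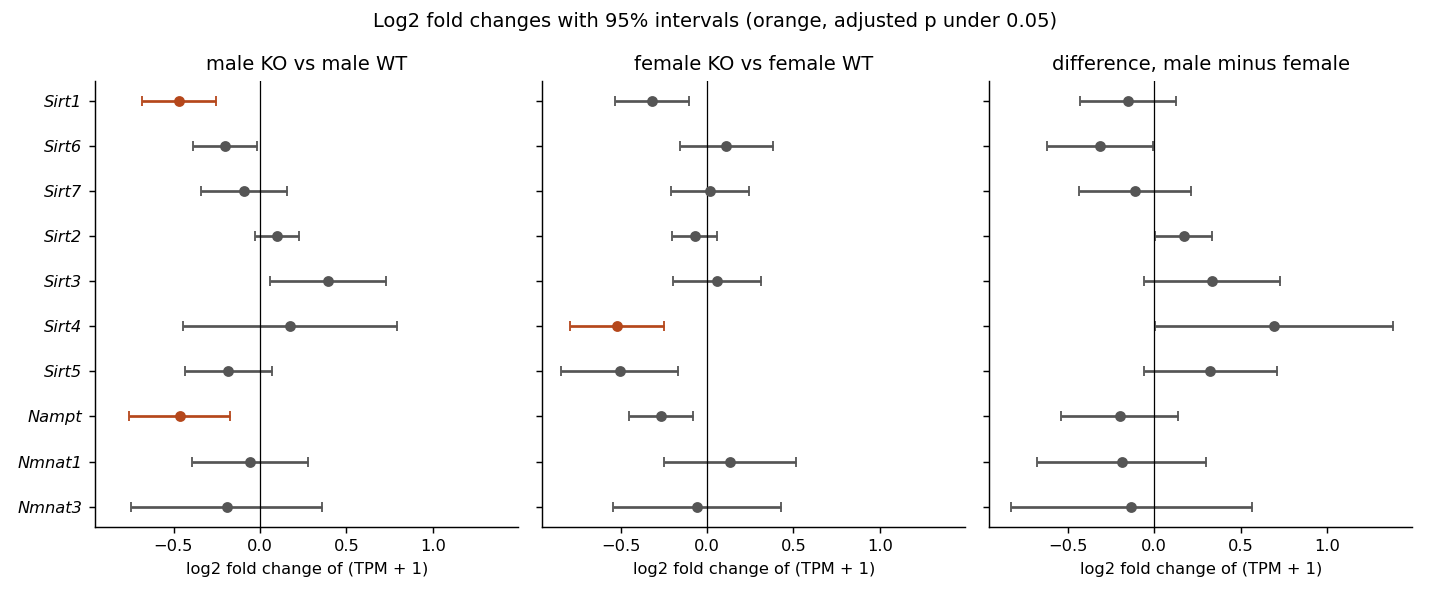
Log2 differences of the 10 genes (x axis, log2 of TPM + 1) with 95% intervals for male KO against male WT, female KO against female WT, and the male minus the female difference; orange marks an adjusted p under 0.05. Sirt1 and Nampt passed in male cells and Sirt4 in female cells, and 0 of the 10 passed the test of the male minus the female difference.

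The sexes were compared within each genotype, which reuses the same libraries. Between male WT and female WT, Sirt4 was lower in male cells by −0.61 (95% interval −0.97 to −0.24, adjusted p = 0.0463, lower in 3 of 3 libraries). It was 1 of 10 genes called, 0 of them higher, beside 12.8% of all genes tested, 6.56% lower and 6.26% higher. It was also 1 of 10 whose groups did not overlap, beside 33.4% of all genes. The median difference over the 10 genes was 0.088, beside −0.018 over all genes, and adjusted p for the genes not called ran from 0.440 to 0.834. Over all genes, 1603 were called, and 1053, 1068 or 1037 without male WT replicate 3, female WT replicate 1 or female WT replicate 3. The call of Sirt4 was lost when any 1 of the 6 libraries was left out: without male WT replicate 1 (adjusted p = 0.0762), replicate 2 (0.0647) or replicate 3 (0.0883), and without female WT replicate 1 (0.0657), replicate 2 (0.130) or replicate 3 (0.113). It was also lost with no filter (0.147), all 12 libraries in one fit (0.0910), no mean-variance trend (0.0751) or the replicate number as a block (0.0555), over 7 settings from 0.0358 to 0.147.

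Between male KO and female KO, Sirt5 was higher in male cells by 0.49 (0.20 to 0.79, adjusted p = 0.0380, higher in 3 of 3 libraries), with a male mean 148.4% of the female mean. It was 1 of 10 genes called, 0 of them lower, beside 16.6% of all genes tested, 8.17% higher and 8.39% lower. The groups did not overlap for 2 of 10 (Sirt2 and Sirt5, both higher in male cells), beside 35.4% of all genes. Sirt3 differed by 0.28 (−0.0029 to 0.56, adjusted p = 0.167). The median difference over the 10 genes was −0.030, beside −0.013 over all genes. Over all genes, 2070 were called, and 1328 without male KO replicate 3. The call of Sirt5 was lost without male KO replicate 1 (adjusted p = 0.0571), replicate 2 (0.0907) or replicate 3 (0.0988), without female KO replicate 1 (0.111), replicate 2 (0.0866) or replicate 3 (0.0665), with no filter (0.0843), and with the replicate number as a block (0.0661). Over 7 settings other than leaving out a library, its adjusted p ran from 0.0148 to 0.0843.

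Levels of the 10 genes kept a broad order in all groups. Sirt2 stood highest at 59.5 to 63.8 TPM and overlapped with no other gene. Nampt and Sirt7 came next and overlapped with each other in every group, Nampt first in the WT groups and Sirt7 first in the KO groups. Sirt1 and Sirt6 overlapped in male WT and in female WT. In both KO groups they did not, with Sirt6 above Sirt1 in male KO (18.5 ± 1.45 against 15.5 ± 1.49 TPM) and in female KO (21.3 ± 2.13 against 16.7 ± 0.955 TPM). Sirt4 stood lower in that order in male WT and female KO than in female WT, and overlapped with its upper neighbour in all groups except male WT. Sirt3, Sirt5 and Nmnat1 formed the next tier between 5.53 and 10.3 TPM. Neighbours in that tier overlapped except Sirt3 and Sirt5 in female KO, where Sirt5 stood apart at 5.53 ± 0.565 TPM. Nmnat3 was last and apart from all others.

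**Figure D4:**
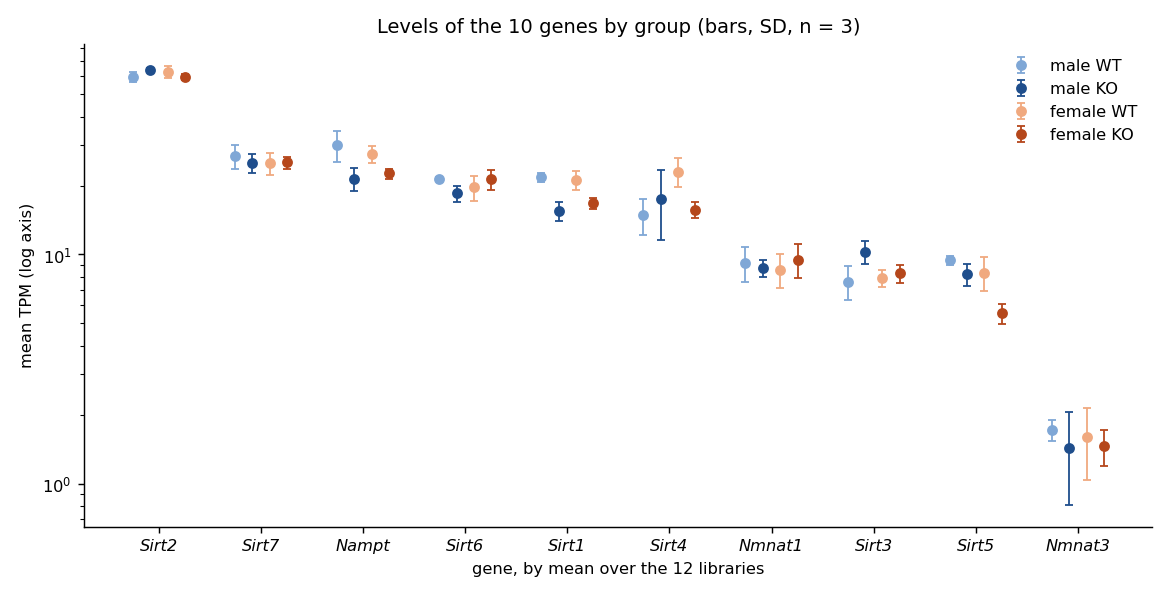
Mean TPM (y axis, log scale) of the 10 genes in the 4 groups, ordered by their mean over the 12 libraries; bars are the SD (n = 3). Sirt2 was highest in every group at 59.5 to 63.8 TPM and Nmnat3 lowest at 1.43 to 1.71 TPM.

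The 7 sirtuins together summed to 161.3 ± 6.36 TPM in male WT, 158.7 ± 6.09 in male KO, 167.8 ± 1.54 in female WT and 152.4 ± 1.93 in female KO. Sirt2 made up 36.9%, 40.2%, 37.4% and 39.2% of that sum in the same order. The mitochondrial sirtuins made up 19.8%, 22.5%, 23.4% and 19.3%. Within the mitochondrial share, Sirt4 was the largest part, with 9.22%, 10.9%, 13.7% and 10.3% of the sum in the order of groups above. Sirt3 held 4.71%, 6.45%, 4.71% and 5.43% of the sum, and Sirt5 held 5.84%, 5.16%, 4.96% and 3.63%.

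The genes whose log2(TPM + 1) followed Sirt3 most closely over the 12 libraries, among 12503 genes, were Sirpa (Pearson r = 0.917), St5 (0.886) and Tcof1 (0.880). Sirpa was at 17.6, 30.0 and 34.0 TPM in male KO and between 10 and 15.5 TPM elsewhere. Those closest to Nampt were Slc35g1 (0.925), Strn3 (0.908) and Glrx3 (0.907). Slc35g1 was at 7.07 to 8.15 TPM in male WT and 4.26 to 5.597 in male KO, and at 6.17 to 7.25 in female WT and 4.55 to 4.81 in female KO. These correlations describe libraries that share groups.

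Of the genes that use NAD or nicotinamide, 15 of 20 listed were tested. In male cells 4 were lower and 0 higher in KO (26.7%, beside 21.6% of all genes), with a median difference of −0.079, beside −0.015 over all genes. Tiparp, a mono-ADP-ribosyltransferase induced by the aryl hydrocarbon receptor, was at 31.4, 33.7 and 35.4 TPM in male WT and at 17.0, 18.5 and 18.6 in male KO. Parp9 was at 23.2, 23.0 and 20.9 TPM in male WT and at 10.7, 13.3 and 13.7 in male KO. Parp12 was at 27.5, 31.7 and 32.7 TPM in male WT and at 19.9, 17.2 and 19.5 in male KO. No male KO library reached a male WT library for any of these. Tiparp fell by 0.86 (adjusted p = 3.26e-04), Parp9 by 0.79 (adjusted p = 0.00262) and Parp12 by 0.67 (adjusted p = 0.00296), and these 3 calls held when any 1 library was left out. The remaining gene called, Parp10, fell by 0.62 (adjusted p = 0.00317). It was named after its value was seen.

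In female cells 0 of the 15 were called by limma, beside 11.5% of all genes, with a median of −0.046. At an unadjusted p under 0.05 there were 2 of 15, beside 3399 of 12504 genes. Tiparp was at 22.4, 20.8 and 23.8 TPM in female WT and at 19.5, 15.7 and 17.3 in female KO (−0.34, adjusted p = 0.0675). Parp12 was at 20.4, 24.9 and 22.3 TPM in female WT and at 20.1, 17.7 and 22.2 in female KO (−0.16, adjusted p = 0.378). The interaction was called lower for these 2 of 15 genes and higher for 0 (13.3%, beside 13% of all genes; median −0.090). It was −0.52 for Tiparp (adjusted p = 0.0140) and −0.51 for Parp12 (adjusted p = 0.0426). For Parp9 it was −0.47 (adjusted p = 0.204), and for Parp10 −0.29 (adjusted p = 0.353). The call of Parp12 was lost in 9 of 12 leave-outs: each male KO library, male WT replicates 2 and 3, female KO replicates 1 and 3, and female WT replicates 1 and 3 (adjusted p 0.0525 to 0.0983). It was also lost in 3 of 6 other settings, with no filter (0.0774), no mean-variance trend (0.0547) or the block (0.0552), over a range from 0.0398 to 0.0774.

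Between the WT groups 4 of the 15 were higher in male cells and 0 lower (26.7%, beside 12.8% of all genes; median 0.022). Parp10 was higher by 0.75 (adjusted p = 0.00756), Parp14 by 0.63 (adjusted p = 0.0288) and Tiparp by 0.56 (adjusted p = 0.00348). The remaining gene called was Parp12 (0.43, adjusted p = 0.0310), named after its value was seen. Parp14 was not called without any 1 male WT library, female WT replicate 1 or female WT replicate 3 (adjusted p 0.0755 to 0.0811), nor with the block (0.0808; 0.00759 to 0.0808 over 6 settings). Between the KO groups 0 of 15 were called by limma, beside 16.6% of all genes (median 0.064), and 3 of 15 had an unadjusted p under 0.05, beside 3814 of 12504 genes. The other 5 listed genes had a mean under 1 TPM. Among them Cd38, an NAD glycohydrolase, was at 0.897, 0.839 and 1.01 TPM in male WT and at 0.0864, 0.121 and 0.198 in male KO, and at 0.247 to 0.516 TPM in female WT and 0.295 to 0.615 in female KO. It was named after its values were seen.

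**Figure D5:**
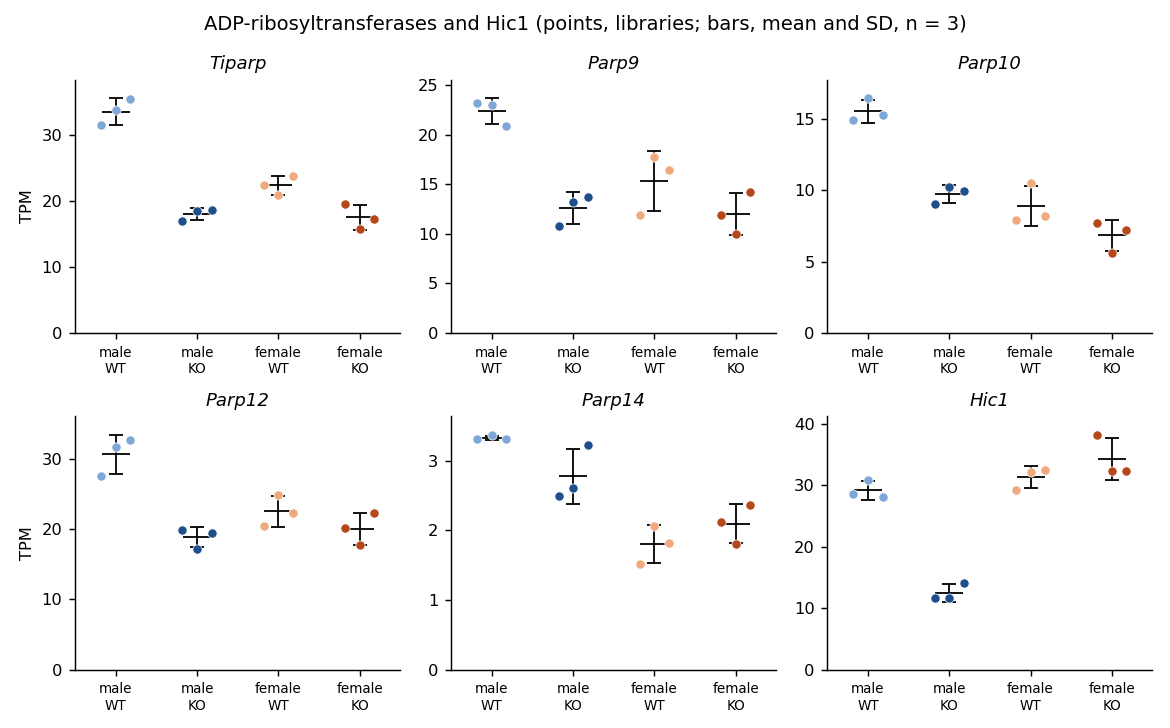
TPM (y axis, from 0) of Tiparp, Parp9, Parp10, Parp12, Parp14 and Hic1 by group; points are libraries and bars the mean and SD (n = 3). The male WT libraries stood highest for Tiparp, Parp9, Parp10, Parp12 and Parp14, and Hic1 was at 12.5 TPM in male KO against 29.2 in male WT.

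Of 3 listed regulators of Sirt1, Hic1, a transcriptional repressor of the Sirt1 gene, fell in male KO. It was at 28.5, 30.9 and 28.1 TPM in male WT and at 11.7, 11.7 and 14.2 in male KO. Female WT stood at 29.3, 32.2 and 32.5 TPM, and in female KO at 38.1, 32.4 and 32.2. The male KO libraries stood below all others, and the female groups overlapped. Hic1 fell by 1.16 in male cells (adjusted p = 2.62e-04) and differed by 0.12 in female cells (adjusted p = 0.390), with an interaction of −1.29 (adjusted p = 4.23e-05). It was lower by −1.38 in male KO than in female KO (adjusted p = 2.03e-04), and these 3 calls held in every leave-out. So 1 of 3 was called lower and 0 higher in male cells, between the KO groups and in the interaction (33.3% each, beside 21.6%, 16.6% and 13% of all genes). In female cells and between the WT groups 0 of 3 were called by limma, beside 11.5% and 12.8% of all genes. An unadjusted p under 0.05 was found for 1 and 0 of 3, beside 3399 and 3456 of 12504 genes. The list medians were −0.21 in male cells, −0.015 in female cells, −0.098 between the WT groups, −0.14 between the KO groups and −0.098 for the interaction.

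Ccar2, an inhibitor of Sirt1, was at 24.2 ± 0.974 TPM in male WT against 27.3 ± 0.659 in male KO (0.17, adjusted p = 0.101), and at 26.3 ± 0.859 in female WT and 26.01 ± 0.906 in female KO. Rps19bp1, known as an activator of Sirt1, was at 93.1 ± 1.05 and 80.4 ± 6.52 TPM in the male groups (−0.21, adjusted p = 0.0540) and at 95.8 ± 2.34 and 88.4 ± 4.16 in the female groups. Neither was called.

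Of the NAD synthesis and transport genes outside the 10, 7 of 16 had a mean of at least 1 TPM, and 0 of 7 were called in any comparison by limma. The share of all genes called was 21.6% in male cells, 11.5% in female cells, 12.8% between the WT groups, 16.6% between the KO groups and 13% in the interaction. At an unadjusted p under 0.05 there was 1 in male cells, 0 in female cells, 2 between the WT groups, 0 between the KO groups and 1 in the interaction. Over all 12504 genes there were 4383, 3399, 3456, 3814 and 3147 in that order. Their medians were −0.17, 0.034, 0.26, 0.14 and −0.072 in that order. The difference was above 0, though not called, for 7 of 7 between the WT groups and again between the KO groups. Over all 12504 genes it was above 0 for 5715 between the WT groups and for 5936 between the KO groups. The most abundant was Slc25a51, the mitochondrial NAD carrier, at 58.6 ± 2.96 TPM in male WT, 55.2 ± 6.67 in male KO, 54.5 ± 4.29 in female WT and 50.8 ± 5.33 in female KO. Pnp, which releases nicotinamide from its riboside, followed at 33.2 ± 2.21, 29.3 ± 1.17, 27.6 ± 2.003 and 28.8 ± 1.98 TPM. Naprt, the entry enzyme from nicotinic acid, was at 2.71 to 3.82 TPM in group means and Nmrk1, the nicotinamide riboside kinase, at 3.69 to 5.43. Nmnat2, the cytosolic member of its family, was at 6.79 ± 1.88 TPM in male WT against 4.16 ± 2.40 in male KO, which overlapped. In female cells it was at 5.27 ± 1.69 TPM in WT and 3.37 ± 0.353 in KO, which did not overlap (−0.49, adjusted p = 0.189). Haao, of the route from tryptophan, was listed at 0 in every library.

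Of 3 genes that phosphorylate NAD or exchange hydride between NAD and NADP, 0 were called in any comparison by limma, beside 21.6%, 11.5%, 12.8%, 16.6% and 13% of all genes in the same order. At an unadjusted p under 0.05 there were 1, 0, 0, 1 and 0 of 3, beside 4383, 3399, 3456, 3814 and 3147 of 12504 genes. Their medians were 0.0076, −0.021, −0.082, −0.054 and 0.029. Nadk, the cytosolic NAD kinase, was at 128.4 ± 6.55 TPM in male WT against 114.7 ± 2.78 in male KO (−0.16, adjusted p = 0.0591), and at 128.7 ± 2.83 in female WT and 126.2 ± 3.83 in female KO. Nadk2, the mitochondrial kinase, was between 11.3 and 12.01 TPM in all group means. Nnt, the transhydrogenase of the inner mitochondrial membrane, has 2 identifiers in the table whose values offset each other, and its test used only the more abundant one, so that test is uncertain. The sum of both, which was not tested, was 33.1 ± 1.35 TPM in male WT, 38.4 ± 1.27 in male KO, 35.0 ± 0.598 in female WT and 39.0 ± 0.552 in female KO. Every KO library was above every WT library of its sex in that sum.

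Of 16 listed Sirt3 substrates, proteins known to be deacetylated by Sirt3 in mitochondria or elsewhere, 13 were tested at the level of their mRNA. In male cells 3 were higher and 1 lower in KO (30.8%, beside 21.6% of all genes; median −0.082). In female cells 1 was higher and 1 lower (15.4%, beside 11.5%; median 0.025). The differences were small beside the levels. Idh2, the mitochondrial NADP isocitrate dehydrogenase, was at 165.7 ± 4.01 TPM in male WT against 190.9 ± 3.87 in male KO (0.20, adjusted p = 0.00925), and this call held in every leave-out. In the female groups it was at 165.3 ± 1.57 and 177.8 ± 6.51 TPM (0.10, adjusted p = 0.114), with an interaction of 0.099 (adjusted p = 0.238).

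Shmt2, the mitochondrial serine hydroxymethyltransferase, moved in opposite directions in the sexes. It was at 337.0, 358.2 and 354.0 TPM in male WT and at 385.0, 387.6 and 383.3 in male KO. Female WT stood at 404.2, 394.4 and 387.5 TPM, and in female KO at 353.9, 345.7 and 347.0. All male KO libraries were above the male WT libraries, and all female KO libraries below the female WT libraries. The male difference was 0.14 (adjusted p = 0.0273), the female difference −0.18 (adjusted p = 0.00945) and the interaction 0.32 (adjusted p = 3.21e-04). The female and interaction calls held in every leave-out, and the male call was lost without any 1 male KO library, male WT replicate 1 or male WT replicate 3 (adjusted p 0.0653 to 0.0751). Shmt2 was also called lower in male WT than in female WT (−0.18, adjusted p = 0.0187) and higher in male KO than in female KO (0.14, adjusted p = 0.0124). The first was lost without male WT replicate 3, female WT replicate 1 or female WT replicate 2 (adjusted p 0.0527 to 0.0687), and the second without female KO replicate 3 (adjusted p = 0.0505). With no mean-variance trend the calls of Shmt2 were lost in male cells (0.118; 0.00423 to 0.118 over 7 settings) and in female cells (0.0622; 0.00185 to 0.0622). The call between the WT groups was lost with no trend (0.0847) or the block (0.0650), over 0.00158 to 0.0847. The call between the KO groups was lost with no trend (0.0989) or the block (0.0599), over 0.00454 to 0.0989. The interaction call held in 6 of 6 other settings.

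Pdha1, the E1 alpha subunit of pyruvate dehydrogenase, was at 102.4 ± 1.37 TPM in male WT against 113.2 ± 3.30 in male KO (0.14, adjusted p = 0.0459), and at 104.1 ± 2.77 in female WT and 117.9 ± 0.723 in female KO (0.18, adjusted p = 0.0200). The male call was lost when any 1 of the 6 libraries was left out (adjusted p 0.0538 to 0.139). The female call was lost without any 1 female KO library, female WT replicate 2 or female WT replicate 3 (adjusted p 0.0567 to 0.0714). Both were also lost with no mean-variance trend (male 0.112, female 0.0654) or the block (male 0.0809, female 0.0687), over 7 settings from 0.00951 to 0.112 in male and from 0.00514 to 0.0687 in female cells. Glud1, glutamate dehydrogenase, was at 193.0 ± 1.34 TPM in male WT against 169.7 ± 6.99 in male KO, and at 159.5 ± 9.96 in female WT and 167.0 ± 3.39 in female KO. Its male difference was −0.19 (adjusted p = 0.0187), its female difference 0.067 (adjusted p = 0.434) and its interaction −0.25 (adjusted p = 0.0238). The male call was lost without male KO replicates 1 or 3 or any 1 male WT library (adjusted p 0.0506 to 0.0584). The interaction call was lost without male KO replicate 3, male WT replicate 1, female KO replicate 1, female WT replicate 1 or female WT replicate 3 (adjusted p 0.0503 to 0.0590). With no mean-variance trend both were lost (male 0.0677, interaction 0.0575), over 0.0107 to 0.0677 in 7 settings and 0.0212 to 0.0575 in 6.

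Between the sexes, 3 substrates were higher and 1 lower in male WT (30.8%, beside 12.8% of all genes; median −0.017), and 2 were higher and 0 lower in male KO (15.4%, beside 16.6%; median 0.023). In the interaction 1 was higher and 1 lower (15.4%, beside 13%; median −0.077). Aldh2, the mitochondrial aldehyde dehydrogenase, was at 175.5 ± 15.0 TPM in male WT, 162.6 ± 7.29 in male KO, 123.2 ± 5.87 in female WT and 125.3 ± 0.966 in female KO. Its male excess was 0.50 in WT (adjusted p = 0.00403) and 0.37 in KO (adjusted p = 0.00141), and both calls held in every leave-out. Glud1 was higher in male WT by 0.28 (adjusted p = 0.0123), a call lost without female WT replicate 3 (adjusted p = 0.05002). Acadl, the long-chain acyl-CoA dehydrogenase, was higher by 0.22 (adjusted p = 0.0337), a call lost without any 1 of the 6 libraries (adjusted p 0.0617 to 0.101), with no mean-variance trend (0.0574) or with the block (0.0658; 0.0311 to 0.0658 over 7 settings).

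Of 15 listed genes of the circadian clock, whose regulators Clock and Arntl drive Nampt in other cells, 13 were tested. In male cells 0 were higher and 1 lower in KO (7.69%, beside 21.6% of all genes; median 0.10). Nr1d1, a clock repressor, fell from 17.0 ± 0.633 to 13.6 ± 0.413 TPM (−0.30, adjusted p = 0.0273), a call lost without any 1 of the 6 libraries (adjusted p 0.0534 to 0.0997) or with the block (0.0567; 0.00958 to 0.0567 over 7 settings). In the female groups it was at 20.6 ± 1.88 TPM in WT and 18.6 ± 0.709 in KO (−0.13, adjusted p = 0.355), with an interaction of −0.17 (adjusted p = 0.344). In female cells 0 of 13 were called by limma, beside 11.5% of all genes (median 0.0068), and 2 of 13 had an unadjusted p under 0.05, beside 3399 of 12504 genes. Between the WT groups 1 was lower in male cells and 0 higher (7.69%, beside 12.8% of all genes; median 0.028): Nr1d2 differed by −0.28 (adjusted p = 0.0344), a call lost without any 1 of the 6 libraries (adjusted p 0.0544 to 0.109) or with the block (0.0800; 0.0213 to 0.0800 over 7 settings). Between the KO groups 1 was lower in male cells and 0 higher (7.69%, beside 16.6% of all genes; median 0.066): Nr1d1 differed by −0.43 (adjusted p = 0.00804), a call that held in every leave-out.

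In the interaction 1 of the 13 clock genes was called higher and 0 lower (7.69%, beside 13% of all genes; median 0.015). Ciart, a clock-associated repressor, was at 7.18 ± 0.293 TPM in male WT against 9.21 ± 1.17 in male KO, and at 9.52 ± 1.21 in female WT and 6.14 ± 1.76 in female KO. All male KO libraries were above all male WT libraries, and all female KO libraries below all female WT libraries. Its interaction was 0.89 (adjusted p = 0.0221). This call was lost without male KO replicates 1 or 3, male WT replicate 1, female KO replicates 1 or 3, or female WT replicate 3 (adjusted p 0.0508 to 0.0569). Clock was at 14.8 to 17.8 TPM and Arntl at 11.9 to 15.7 TPM in group means, and neither was called in any comparison.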

How the data were processed

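Polyadenylated RNA of 12 fibroblast cultures, 3 per group, was sequenced by the authors. The deposited values are TPM that the authors estimated with Salmon (1.10.1 per the labels) against GRCm38, summed to versioned Ensembl genes. The annotation release was not given in the sources used here. Depth is not recorded in TPM, so precision was read from the spread between replicates. No column was left out.

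Identifiers were mapped to GENCODE symbols on GRCm38, and where a symbol had 2 identifiers the one with the higher mean was used. Differences were tested with limma 3.58.1 (R 4.3.3) as two-sided tests on log2(TPM + 1), with a trend of variance on mean, over the 12504 genes whose mean in the 12 libraries was 1 TPM or more. P-values were adjusted by Benjamini-Hochberg over all of these, and 0.05 was the threshold. The comparisons within a sex or a genotype used 6 libraries each, and the interaction used 12. Tables were made with Python 3.11.15, numpy 2.4.6 and pandas 2.3.3, and figures with matplotlib 3.10.9. The code was tested on simulated data.

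The pathway lists were NAD synthesis and transport, NAD phosphorylation and transhydrogenation, NAD and nicotinamide consumption, regulators of Sirt1, the circadian clock, and Sirt3 substrates. Marker lists covered fibroblast, epithelial, endothelial, macrophage, skeletal muscle and neural cells. Members and lists were chosen with earlier results of these data known. Named from each list were up to 3 genes per comparison and direction, those with the largest absolute log2 difference among the genes called. For Sirt3 and for Nampt the 3 genes with the highest Pearson correlation were named. Other names were given to fill small counts or as pathway background and were chosen after their values were seen. The alternatives were a pseudocount of 0.1, no filter, a filter at 5 TPM, scaling by median of ratios, no trend, one fit over all 12 libraries, a block for the replicate number, and leaving out each library. Promoter sequences are from RefSeq on GRCm38.p6.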

Additional observations from a re-analysis of the deposited data

Results flagged for a closer look

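For 6 genes of the pathway lists, the KO effect differed between the sexes by the interaction test over all 12 libraries, where a negative value means that KO against WT was lower in male than in female cells. Hic1 gave −1.29 (adjusted p = 4.23e-05), Tiparp −0.52 (adjusted p = 0.0140), Parp12 −0.51 (adjusted p = 0.0426) and Glud1 −0.25 (adjusted p = 0.0238). Ciart gave 0.89 (adjusted p = 0.0221) and Shmt2 0.32 (adjusted p = 3.21e-04). For Tiparp, Parp12 and Glud1 the sexes differed mainly in WT. Their male mean was 149.9%, 136.0% and 121.0% of the female mean in WT, and 103.2%, 94.4% and 101.6% in KO. For Hic1 it was 93.2% in WT and 36.5% in KO, for Ciart 75.5% and 150.1%, and for Shmt2 88.4% and 110.5%. Over all genes tested 13% passed this test, beside 2 of 15 genes that use NAD, 1 of 3 regulators of Sirt1, 1 of 13 clock genes, 2 of 13 Sirt3 substrates, and 0 of 7 and 0 of 3 genes of NAD synthesis and phosphorylation. With 1 library left out, the call was lost in 9 of 12 cases for Parp12, 6 of 12 for Ciart and 5 of 12 for Glud1. Of the sirtuins, Nampt, Nmnat1 and Nmnat3, 0 of 10 passed the same limma test, and 3 of 10 had an unadjusted p under 0.05 (1 of 7 and 0 of 3 for synthesis and phosphorylation), beside 3147 of 12504 genes.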

How the results depend on the processing

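For the 10 genes over 5 comparisons, 633 alternative values kept their direction and their side of the threshold, 34 lost their call, 4 gained one and 24 turned sign. Most of the 633 were differences that were not called in either fit. The 34 were the calls of Nampt in male cells (lost in 4 of 6 leave-outs and 4 of 7 other settings), Sirt4 in female cells (5 of 6 and 3 of 7), Sirt4 between the WT groups (6 of 6 and 4 of 7) and Sirt5 between the KO groups (6 of 6 and 2 of 7). The call of Sirt1 in male cells was lost in 0 of 6 and 0 of 7. For the 29 named calls of other genes, 317 kept both, 89 lost the call and 0 turned sign. The values that turned sign all belonged to differences that were not called, and the cause was not tested. Leaving out 1 library, which leaves fewer samples, gave in male cells −0.19 to 0.024 for Nmnat1 and −0.33 to 0.038 for Nmnat3. In female cells it gave −0.064 to 0.095 for Sirt7, −0.00098 to 0.12 for Sirt3 and −0.20 to 0.10 for Nmnat3. Between the WT groups it gave −0.033 to 0.099 for Sirt1, −0.17 to 0.030 for Sirt3, −0.031 to 0.23 for Nmnat1 and −0.052 to 0.25 for Nmnat3. Between the KO groups it gave −0.081 to 0.043 for Sirt7, −0.064 to 0.39 for Sirt4 and −0.19 to 0.18 for Nmnat3, and in the interaction −0.29 to 0.099 for Nmnat3. With median-of-ratios scaling Sirt7 between the KO groups was 0.0012.

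Of the 10 genes, 1 was called in male cells with no filter, median-of-ratios scaling or no trend. Over all genes 2335 (of 22401 tested with no filter), 2684 and 2316 were called in that order. With all 12 libraries in one fit 3 of the 10 were called, beside 3306 of all genes. Without 1 library 1 to 2 of the 10 were called, beside 1813 to 2318 of all genes. In female cells 0 of the 10 were called with no filter or no trend, beside 1126 and 1141 of all genes. With all 12 libraries in one fit 2 were called, beside 1711 of all genes, and without 1 library 0 to 1. Between the WT groups 0 of the 10 were called with no filter, no trend or all 12 libraries in one fit. Over all genes 1275, 1375 and 1968 were called in that order. Without any 1 library 0 of the 10 were called there. Between the KO groups 0 of the 10 were called with no filter, beside 1684 of all genes, and 0 without any 1 library. In the interaction 0 to 1 of the 10 were called without 1 library, beside 1353 to 1559 of all genes. Over all genes, leaving out 1 library left 774 to 835 called in female cells, 1037 to 1243 between the WT groups and 1328 to 1824 between the KO groups. Each leave-out leaves fewer samples, and for the other settings the cause was not tested.

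With the replicate number as a block (paired design), 1 of the 10 genes was called in male cells, beside 2366 of all genes. In female cells 1 of the 10 was called, beside 670 of all genes. Between the WT groups, between the KO groups and in the interaction 0 of the 10 were called, beside 1114, 1397 and 1518 of all genes. The correlation across the 12504 genes of deviations from the group mean, between libraries sharing a number, ran from −0.057 to 0.078 over 4 comparisons, so the numbers were not treated as pairs.

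With 3 cultures a group and no depth recorded in the table, genes under a few TPM, such as Nmnat3, had wide intervals, and differences inside such an interval are not excluded. Among the 10 genes, the calls with an adjusted p between 0.03 and 0.05 were lost under several alternatives. If each group was 1 line, the tests do not cover the spread between lines.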
